A study of Mus musculus with 2 samples.

Results

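The protein genes of the mitochondrial ribosome were compared between the second polar body (PB2), the small cell that the mouse egg extrudes after fertilization, and the zygote it was taken from. They were chosen by name, as genes whose symbol starts with Mrpl or Mrps and a number, and 76 of the 11262 genes in the deposited table met that rule. In all 76 the table's own description called the product a ribosomal protein. A hand-written list of the ribosome's proteins under these symbols has 78 entries, and the remaining 2, Mrpl53 and Mrps34, were not analysed here.

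Mitochondria keep their own ribosome, which translates the few messenger RNAs encoded by mitochondrial DNA, all of them for membrane subunits of the respiratory chain and ATP synthase. Its ribosomal RNAs are encoded in the mitochondrion, whereas its proteins are encoded in the nucleus, made in the cytosol and imported. The large subunit (Mrpl genes) forms peptide bonds and releases the new chain at the inner membrane, and the small subunit (Mrps genes) reads the messenger RNA. Part of the proteins have counterparts in bacterial ribosomes and the others were added during mitochondrial evolution. The egg carries a very large stock of mitochondria, and these pass to the embryo through the maternal cytoplasm.

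Both samples came from untreated C57BL/6 mouse embryos late in the one-cell stage (the methods name C57BL/6N as the usual strain), and after the zona pellucida had been taken off with acid the PB2 was detached from its embryo in trypsin. Each library was made from pooled PB2s or pooled zygotes by amplification of full-length mRNA, with 1 library of PB2 and 1 of zygotes. There were no replicates, so no test was run, it is not known how much repeat libraries would vary, and every difference given here describes these 2 libraries. Values are TPM, a measure of transcript abundance that adjusts each gene for its length and each library to a fixed total, so they are shares of a library and the reads behind them are not known. In pooled samples fewer contributing cells and less RNA per cell cannot be told apart, and TPM does not tell how much RNA a PB2 holds. All 10 oocyte markers examined were found in both libraries, from 62.7 to 22561.9 TPM in the zygote and from 99.5 to 10495.6 TPM in PB2. Of 15 cumulus and granulosa cell markers 4 were in the table, with a summed level of 81.0 TPM in zygotes and 80.3 TPM in PB2s, nearly all of it Cyp19a1, and their part in the results was not tested. Of 7 sperm markers 2 were in the table, adding up to 20.8 TPM in the zygote against 22.6 TPM in PB2.

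The mitochondrial ribosomal protein genes lay above the typical gene of the table in both libraries. Their median was 27.8 TPM in zygotes and 17.8 TPM in PB2s, against 8.70 and 11.1 TPM over the whole table. None was listed at 0 in either library. The most abundant by the mean of both libraries was Mrpl18, which binds the structural RNA of the central protuberance, a ridge at the top of the large subunit, with 311.8 TPM in the zygote against 247.1 TPM in PB2. Next came Mrpl32, at 257.9 and 215.4 TPM, and Mrps33, at 340.7 and 127.7 TPM. Mrpl21 had 198.8 TPM in zygotes and 247.9 TPM in PB2s, and Mrpl40 had 285.2 and 147.0 TPM. These 5 genes held 31.5% of the summed level of all members in the zygote and 26.9% in PB2, so a few transcripts made up much of the total. Only Mrpl21 of the 5 was higher in PB2.

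At the other end the proteins of one particle were represented by very few transcripts. Mrpl33, a small protein of the large subunit, was at 0.5 TPM in the zygote against 0.6 TPM in PB2. Mrpl19 was at 0.5 and 2.4 TPM, Mrps10 at 2.7 and 1.7 TPM, and Mrpl15 at 2.7 and 2.1 TPM. Mrpl49 had 2.6 and 2.3 TPM, and Mrpl20 had 4.5 and 1.3 TPM. The transcripts of the members thus spanned from 0.5 to 340.7 TPM in the zygote and from 0.6 to 247.9 TPM in PB2, although the ribosome holds these proteins in near equal numbers. The order of the members was much alike in the 2 libraries, with Spearman's rho of 0.93 between log2(TPM + 1) values across 75 members, against 0.91 across the genes compared. Both values are across genes of the same 2 libraries and carry no error.

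PB2 and the zygote were compared by the log2 ratio, log2((PB2 TPM + 1)/(zygote TPM + 1)), in which 1 is added to each value to keep low genes from giving extreme ratios. A value above 0 means a higher share of the PB2 library. The 10645 genes with at least 1 TPM in either library were compared, and 75 of the 76 members were among them, all but Mrpl33. The median log2 ratio of the 75 members was -0.39, below 0, while that of all genes compared was 0.21, above 0. The quartiles of the members were -0.77 and 0.04, and those of all genes -0.38 and 0.82. Of the members, 55 (73.3%) were lower in PB2 than in the zygote, against 40.0% of all genes compared, and 20 were higher in PB2, against 59.2%. Their summed level was 4422.3 TPM in zygotes and 3657.1 TPM in PB2s, a ratio of 0.827.

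**Figure D1:**
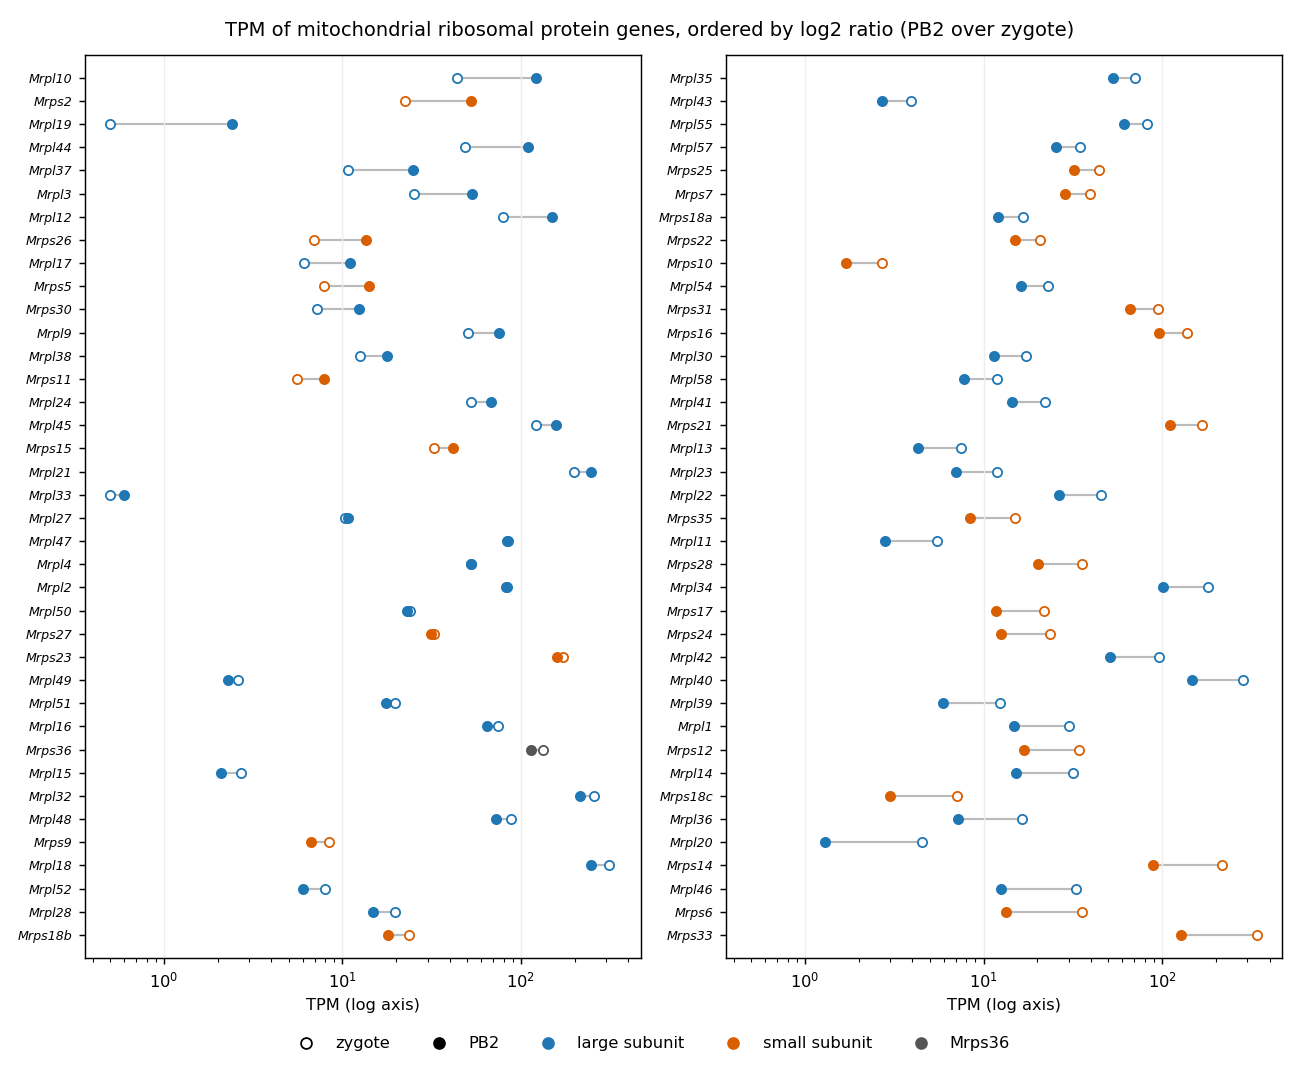
TPM of each of the 76 members in the zygote (open circles) and in PB2 (filled circles) on a log axis, 1 library each, with members ordered by log2 ratio from the top of the left panel to the bottom of the right panel and coloured by ribosomal subunit. All members of the right panel have the filled circle to the left of the open one, and the lowest member, Mrps33, has 340.7 TPM (zygote) and 127.7 TPM (PB2).

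Few members differed by 2-fold or more. A level at least 2-fold above that of the zygote was found in PB2 for 6 of the 75 members (8.0%), against 18.9% of all genes compared. The opposite, 2-fold or more above PB2 in the zygote, held for 8 members (10.7%), against 8.09% of all genes, a share near the background. The other 61 lay within 2-fold. At a threshold of 1.5-fold 11 members passed in PB2, against 34.2% of all genes, and 23 in the zygote, against 18.1%. On this scale none reached 4-fold in either direction, against 2.48% of all genes in PB2 and 0.695% in the zygote. The split depended on the scaling. With log2 ratios centred on the median of all genes, a shift of 0.21, 1 member lay at least 2-fold up in PB2 and 17 lay at least 2-fold up in the zygote, against 13.0% and 12.1% of all genes. The zygote library was also rescaled so that genes well expressed in both libraries had a median TPM ratio of 1. The counts were then 5 and 12, against 16.7% and 9.22% of all genes, whose median log2 ratio was still 0.14.

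**Figure D2:**
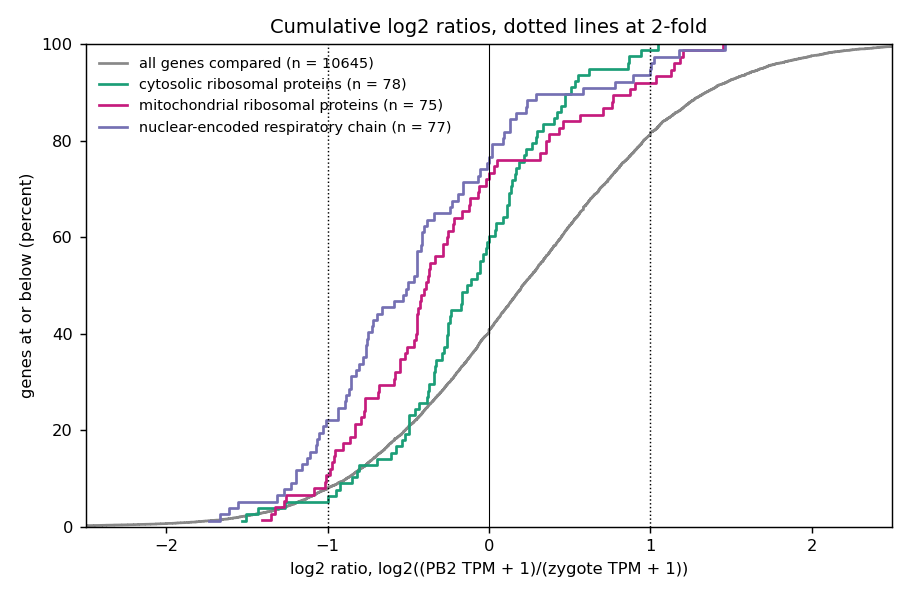
Percent of genes at or below each log2 ratio (PB2 over zygote), with dotted lines at 2-fold. Shown are all genes compared, the mitochondrial and the cytosolic ribosomal proteins, and the nuclear-encoded subunits of the respiratory chain, counted with those of ATP synthase. The curve of the 75 mitochondrial ribosomal proteins (median -0.39) runs to the left of that of all genes (median 0.21) over most of its course and at its median lies between those of the cytosolic ribosomal proteins (median -0.12) and the respiratory chain (median -0.50).

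The 6 members past 2-fold in PB2 were led by Mrpl10, the base of the flexible stalk on the large subunit that receives translation factors. It had 43.7 TPM in the zygote against 120.9 TPM in PB2, a log2 ratio of 1.45 and a ratio of 2.77. Mrpl10 lies on the plus strand of chromosome 11, from 97041560 to 97049213 in GRCm38, and 877 genes of the table had log2 ratios above its own. Mrps2, a protein of the small subunit with a bacterial counterpart, had 22.4 TPM in zygotes and 52.8 TPM in PB2s. Of the 6, Mrps2 alone belongs to the small subunit.
Mrpl44, which carries a ribonuclease III-like fold and sits near the exit of the large subunit, had 48.9 and 109.3 TPM. Mrpl37, one of the proteins added in mitochondria, had 10.8 and 24.8 TPM. Mrpl3, whose bacterial counterpart reaches towards the site of peptide bond formation, had 25.3 and 53.0 TPM with a log2 ratio of 1.04, the smallest of the 6. Mrpl19 also passed, but on values of 0.5 and 2.4 TPM. The rounding of the deposited values to 1 decimal allows any ratio between 4.27 and 5.44 for this gene, and 36.0% of its exonic bases are shared with Gcfc2 on the other strand, so its reads and those of Gcfc2 may not be separable. Just under 2-fold lay Mrpl12, with 79.2 TPM in the zygote against 149.3 TPM in PB2, and Mrps26, with 6.9 and 13.5 TPM.

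The 8 members past 2-fold in the zygote were 4 of the 25 small subunit members compared and 4 of the 49 large subunit members. Over all genes compared the share was 8.09%, near that of the large subunit. The larger share of the small subunit rested on 4 genes, and the difference was not tested. Mrps33, a protein of the small subunit without a bacterial counterpart and the most abundant member of the zygote, had 340.7 TPM there and 127.7 TPM in PB2, which is a ratio of 0.375 (log2 ratio -1.41). It lies on the minus strand of chromosome 6, from 39801804 to 39810988 in GRCm38. Mrps6 had 35.4 and 13.3 TPM, and 19.9% of its exonic bases are shared with other genes on the same strand. Mrps14, a protein of the head of the small subunit, had 216.7 TPM in zygotes and 89.2 TPM in PB2s. Both Mrps33 and Mrps14 were thus abundant transcripts, far from the rounding step. For Mrps33, though, a processed pseudogene, Gm5776, matches 321 nucleotides of the transcript at 99.7% identity, so reads could be shared with it. With the trends of the ratio on GC content and transcript length taken out, as described further on, Mrps33 was no longer past 2-fold, at -0.69, while Mrps14 still was, at -1.02.
Mrpl46, of the central protuberance, had 32.9 TPM in the zygote against 12.5 TPM in PB2. Mrpl36 had 16.4 and 7.2 TPM, and Mrpl14, which lies at the face of the large subunit towards the small one, had 31.6 and 15.2 TPM. Mrps18c was lower still, with 7.1 TPM in zygotes and 3.0 TPM in PB2s, and 23.2% of its exonic bases are shared with another gene on the same strand. Mrpl20 was the least abundant of the 8, with 4.5 and 1.3 TPM, and rounding allows a ratio between 0.275 and 0.303. Just inside the threshold on the log2(TPM + 1) scale, though slightly past 2-fold in the plain ratio of TPM, was Mrps12, which lines the decoding centre of the small subunit, with 34.3 TPM in the zygote against 16.8 TPM in PB2. The same held for Mrpl1, with 30.2 and 14.9 TPM.

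A few members differed little between the libraries. Nearest to a log2 ratio of 0 was Mrpl4, with 52.6 TPM in zygotes and 52.5 TPM in PB2s. Mrpl2 had 83.2 and 82.0 TPM and Mrpl47 had 83.2 and 84.9 TPM, so these 3 large subunit proteins were close to equal at well above the median level. Mrpl27 had 10.4 and 10.8 TPM, and Mrpl50 had 23.9 and 22.9 TPM. For 6 members, Mrpl22, Mrpl23, Mrpl27, Mrpl42, Mrps10 and Mrps21, a processed pseudogene matches at least 50% of the transcript at 95% identity or more. Reads could be shared with the copy, so the values of these members are less certain. Processed pseudogenes that match less of the transcript were found for other members, among them Mrpl21 (49.65%) and Mrps33.

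Separated by subunit, the 49 large subunit members compared had a median log2 ratio of -0.33 and the 25 small subunit members one of -0.45. With the length and GC trends described further on taken out, the medians were nearly equal, at -0.20 and -0.23. Mrps30 and Mrps18a were counted with the large subunit, where structures place them in spite of their names, and Mrps36, since assigned to the 2-oxoglutarate dehydrogenase complex, was counted with neither. The summed level, which was not adjusted for length and GC trends, differed more clearly than the medians. The large subunit added up to 2740.7 TPM in the zygote against 2545.7 TPM in PB2, a ratio of 0.929. The small subunit added up to 1549.0 and 997.9 TPM, a ratio of 0.644. Lower in PB2 were 20 of the 25 small subunit members (80.0%) and 34 of the 49 large subunit members (69.4%). The share was 73.3% over all members and 40.0% over all genes compared. Mrps33 and Mrps14 supplied 557.4 TPM of the small subunit in the zygote but 216.9 TPM in PB2, and without them the ratio of its sums was 0.788. Over all members, leaving out the 5 most abundant gave a ratio of sums of 0.882, and leaving out the 10 most abundant gave 0.948.
Members with a bacterial counterpart and members added in mitochondria had like medians, -0.39 over 45 genes and -0.41 over 29. The former spread more widely, with quartiles of -0.79 and 0.32 against -0.55 and -0.07.

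Within the large subunit the members were grouped by where they sit. Of the stalk proteins, Mrpl10 and Mrpl12 were higher in PB2, as given above. Mrpl11, at the foot of the stalk, was not, with 5.5 TPM in zygotes and 2.8 TPM in PB2s. The stalk was thus not displaced as a whole.
Around the exit tunnel, through which the new chain leaves towards the membrane, 8 members had a median log2 ratio of 0.19 (0.0074 with the length and GC trends described further on taken out) and ranged from -0.96 to 1.14. Higher in PB2 beside Mrpl44 were Mrpl17, with 6.1 TPM in the zygote against 11.1 TPM in PB2, Mrpl24, with 52.5 and 68.1 TPM, and Mrpl45, the protein that docks the ribosome to the inner membrane, with 122.0 and 156.3 TPM. Mrpl47 was nearly equal. Lower in PB2 were Mrpl22, with 45.4 and 26.3 TPM, Mrpl23, with 11.9 and 7.0 TPM, and Mrpl39, with 12.4 and 5.9 TPM. These proteins are neighbours in the particle, yet their transcripts lay on both sides of 0. Over 26.3% of the exonic bases of Mrpl24 another gene is annotated on the other strand.
In the central protuberance 6 of 7 members were lower in PB2, against 73.3% of all members and 40.0% of all genes compared. The median log2 ratio of the 7 was -0.36, near the -0.39 of all members. With both trends taken out it was -0.19, near the -0.20 of all members. Lower in PB2 beside Mrpl46, Mrpl40 and Mrpl18 were Mrpl48, with 88.0 TPM in zygotes and 72.1 TPM in PB2s, Mrpl55, with 82.5 and 61.4 TPM, and Mrpl52, with 8.0 and 6.0 TPM. The exception was Mrpl38, with 12.6 and 17.7 TPM, which was at -0.08 with both trends taken out.
The Mrps18 paralogs, which take different places in the ribosome, were all lower in PB2. Mrps18a had 16.7 TPM in the zygote against 12.0 TPM in PB2, and Mrps18b had 23.6 and 17.9 TPM. Mrps18c, given above, had the lowest log2 ratio of the 3, but with both trends taken out it had the highest, at -0.14, beside -0.44 for Mrps18a and -0.23 for Mrps18b. For Mrps18b 30.5% of the exonic bases are overlapped by another gene.

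**Figure D3:**
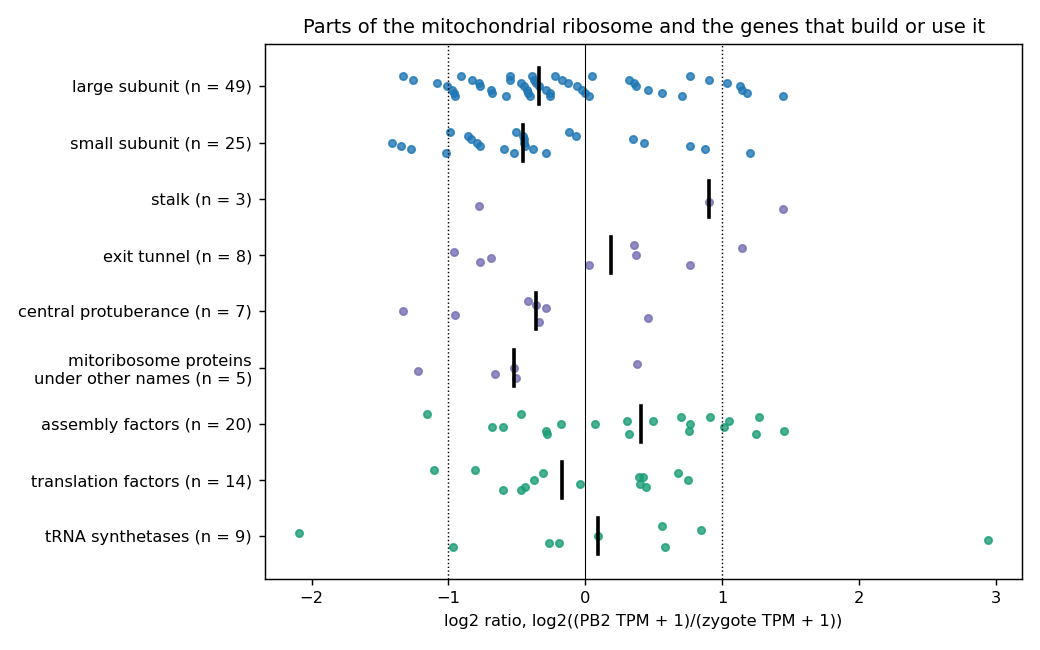
Log2 ratio (PB2 over zygote) of each gene compared, as a point, for the 2 subunits, 3 places in the large subunit, mitoribosomal proteins under other names and 3 groups of genes that build or use the ribosome, with a black bar at each median and dotted lines at 2-fold. The medians of both subunits lie below 0 (-0.33 and -0.45), and the assembly factors have a median of 0.41.

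One pair of members shares its upstream region. Mrpl46, on the minus strand, and Mrps11, on the plus strand, lie head to head on chromosome 7, from 78775236 to 78783531 and from 78783119 to 78792989 in GRCm38, and their annotated genes overlap by 413 bases. Their RefSeq starts are 42 bases apart. Below is the plus strand from chr7:78783060-78783160 (GRCm38.p6), with the first 30 transcribed bases of each gene in capitals, those of Mrpl46 at the left and in reverse orientation, and the stretch between the starts in lower case.
Mrpl46 and Mrps11: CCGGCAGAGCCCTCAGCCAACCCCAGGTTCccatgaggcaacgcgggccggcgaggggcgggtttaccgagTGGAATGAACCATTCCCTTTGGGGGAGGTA
The pair did not move together. Mrpl46 had 32.9 TPM in zygotes and 12.5 TPM in PB2s, a log2 ratio of -1.33, whereas Mrps11 had 5.6 and 7.9 TPM, a log2 ratio of 0.43. Their log2 ratios differed by 1.76. The overlap covers 12.2% of the exonic bases of Mrpl46 and 7.97% of those of Mrps11, and whether the counting used strand is not given in the sources used here. No other members lay within 100000 bases of each other, and the 76 members were spread over 17 chromosomes, 11 of them on chromosome 11.

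Promoters were compared because genes for mitochondrial proteins are known to carry short motifs of a few general transcription factors. RefSeq windows from 250 bases before to 50 bases after the start (GRCm38.p6) were found for 68 members, with 74 windows in all, some genes having several starts. Searched on both strands were the ETS motif CCGGAAG, bound by the factor family that includes nuclear respiratory factor 2, the motif of nuclear respiratory factor 1 (NRF1), which is GCGCA and GCGC with any 1 base between, and the YY1 motif AAGATGGC. At least 1 of the 3 was found in 56.8% of the members' windows, against 28.9% of the 10718 windows of the genes compared and 14.7% of all 32851 windows. The ETS motif was in 33.8% of the members' windows against 17.6% in the genes compared, the NRF1 motif in 17.6% against 10.3%, and the YY1 motif in 16.2% against 4.46%. The TATA motif TATAAA, by contrast, was in 6.76% against 7.63%, and the GC-rich motif GGGCGG was in 52.7% against 60.5%.
Members on both sides of 0 held the motifs. Of the windows of members with a log2 ratio above 0, 12 of 19 held at least 1 of the 3 motifs, and of those below 0, 30 of 55. Mrpl33, too low to be among the genes compared, was counted here with those above 0 and holds the ETS motif. Singly, the ETS motif was in 6 of 19 windows and 19 of 55, the NRF1 motif in 6 and 7, and the YY1 motif in 2 and 10. The motif GGGCGG was in 6 of 19 windows above 0 and 33 of 55 below 0. These are matches of letters only and carry no test. Shown are, for each motif, the members with the highest and the lowest log2 ratio among those with a single window that hold it between 120 bases before and 30 bases after the start, with the matched letters in capitals, read in the direction of the gene.
Mrpl3 (log2 ratio 1.04, ETS motif, plus strand, chr9:105053148-105053297): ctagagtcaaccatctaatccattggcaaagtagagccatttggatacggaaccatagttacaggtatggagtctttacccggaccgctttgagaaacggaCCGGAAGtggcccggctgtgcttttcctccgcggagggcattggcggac
Mrps12 (log2 ratio -0.99, ETS motif, minus strand, chr7:28741792-28741941): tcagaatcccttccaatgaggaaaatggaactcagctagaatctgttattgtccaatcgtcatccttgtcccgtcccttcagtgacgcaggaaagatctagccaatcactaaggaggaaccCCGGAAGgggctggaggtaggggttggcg
Mrpl44 (log2 ratio 1.14, NRF1 motif, plus strand, chr1:79775898-79776047): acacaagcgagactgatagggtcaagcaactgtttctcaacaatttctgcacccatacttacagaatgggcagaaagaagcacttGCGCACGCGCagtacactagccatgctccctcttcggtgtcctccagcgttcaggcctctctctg
Mrpl14 (log2 ratio -1.01, NRF1 motif, plus strand, chr17:45686229-45686378): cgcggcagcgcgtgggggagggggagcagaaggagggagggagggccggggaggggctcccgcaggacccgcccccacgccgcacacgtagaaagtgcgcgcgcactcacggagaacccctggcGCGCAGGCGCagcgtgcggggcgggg
Mrps27 (log2 ratio -0.07, YY1 and ETS motifs, plus strand, chr13:99344666-99344815): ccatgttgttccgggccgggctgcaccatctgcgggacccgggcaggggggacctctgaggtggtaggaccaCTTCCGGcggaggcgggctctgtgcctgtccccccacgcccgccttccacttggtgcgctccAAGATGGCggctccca
Mrpl36 (log2 ratio -1.09, YY1 motif, plus strand, chr13:73330889-73331038): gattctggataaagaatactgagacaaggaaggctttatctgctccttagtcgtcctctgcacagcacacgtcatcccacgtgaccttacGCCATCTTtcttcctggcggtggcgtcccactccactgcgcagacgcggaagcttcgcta
Both members shown for the ETS motif, Mrpl3 and Mrps12, and both for the NRF1 motif were chosen for their unlike log2 ratios. Mrps27, with 32.7 TPM in the zygote against 31.2 TPM in PB2, was close to equal. Mrps11 was left out of this choice because its window runs into Mrpl46.

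The transcripts of the members are short. Taking for each gene its longest coding transcript in GENCODE M21, the median length of the 75 members compared was 1398 nucleotides, against 3067 over all genes compared, and the median GC content was 49.9% against 49.1%. Across the 75 members the log2 ratio went up with transcript length (Spearman's rho 0.37) and showed no relation to GC content (rho 0.0036). Across the 10606 genes compared that have a transcript the order was the other way round, with rho of 0.17 for length and 0.44 for GC content. These are correlations across genes of 1 pair of libraries, given without a p-value. Among the members GC content and length were themselves related, with rho of -0.63.
Of the members with transcripts under 1000 nucleotides, 19 of 21 were lower in PB2, against 71.2% of 555 other genes of that length, and the medians were -0.77 and -0.42. In this class 5 of the 21 members were past 2-fold in the zygote (Mrps6, Mrpl20, Mrpl36, Mrps18c and Mrpl14), against 18.4% of the other genes, and none was in PB2, against 3.78%. From 1000 to 1499 nucleotides the medians were -0.25 for 22 members and -0.17 for 975 other genes. Long transcripts did not bring the members up to the other genes. From 2500 nucleotides the median of 21 members was -0.28, against 0.34 over 6620 other genes, and among these members Mrps14, Mrps17 and Mrpl1 were well below 0 while Mrpl19, Mrpl3 and Mrps26 were well above.
The members parted most from other genes at high GC content. At 50% GC or more, 37 members had a median log2 ratio of -0.42, against 0.64 over 4723 other genes. Short length went along with this, because 34 of these members were under 1500 nucleotides. Among genes that were both under 1500 nucleotides and at 50% GC or more, the members' median was -0.43 and that of 921 other genes was -0.07. Below both limits, under 1500 nucleotides and under 50% GC, it was the other way round, with -0.45 for 9 members and -0.62 for 609 other genes. With loess trends on GC content and on length both taken out of the log2 ratio, the median of the members was -0.20, against 0.0047 over all genes, so the difference was smaller but kept its sign. It was -0.28 with the trend on length alone removed and -0.60 with the trend on GC content alone removed. Of the single members, Mrpl46 (-1.22), Mrps6 (-1.15), Mrpl40 (-1.08), Mrps35 (-1.07), Mrpl39 (-1.07) and Mrpl11 (-1.05) had the lowest log2 ratios after both were taken out. Past 2-fold in the deposited values but not on this scale were Mrps33, Mrps18c, Mrpl36 (-0.71) and Mrpl20 (-0.89) in the zygote and Mrpl37 (0.77), Mrpl3 (0.90) and Mrpl19 (0.93) in PB2. The highest were those of Mrpl10, Mrpl44 (1.11) and Mrps2 (1.04).

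**Figure D4:**
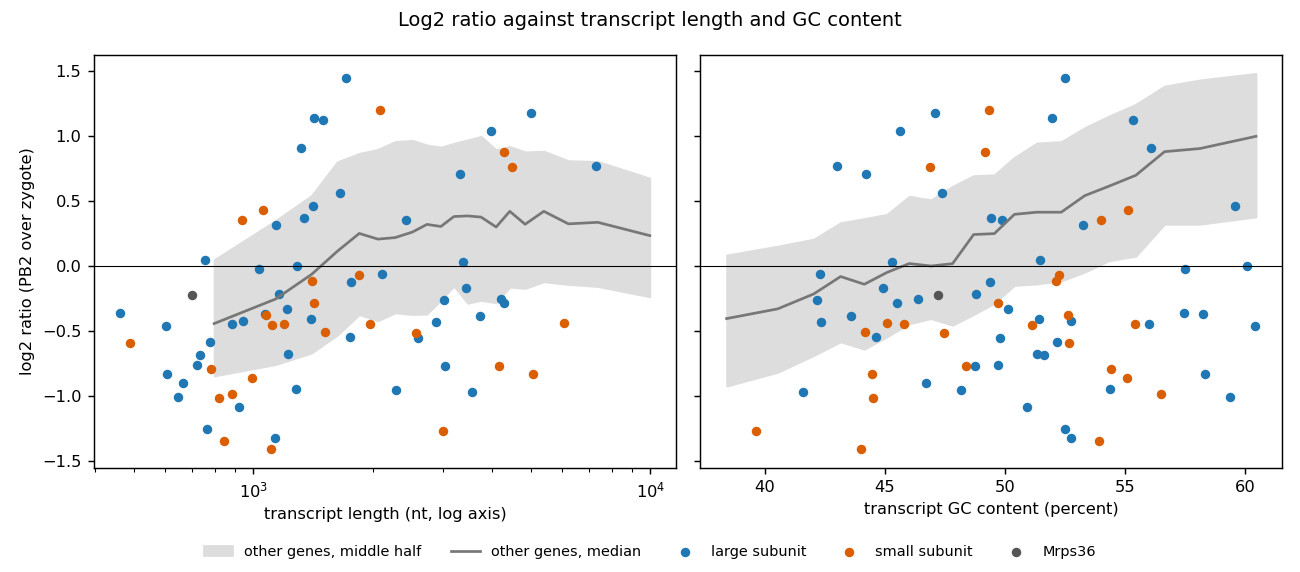
Log2 ratio (PB2 over zygote) of the 75 members against transcript length in nucleotides on a log axis (left) and against GC content in percent (right), coloured by subunit. The grey line and band give the median and the quartiles of all other genes in 20 classes of equal size, and at 50% GC or more most members lie below the line (medians -0.42 and 0.64).

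Proteins of the same ribosome whose genes carry other names gave a like picture. Dap3, a protein of the head of the small subunit that binds GTP, had 100.2 TPM in zygotes and 70.4 TPM in PB2s. Chchd1 had 51.7 and 21.6 TPM, at least 2-fold lower in PB2. Ptcd3 had 23.0 and 14.2 TPM and Aurkaip1 had 17.5 and 11.9 TPM, both of the small subunit. Only Gadd45gip1, which sits near the exit of the large subunit, was higher in PB2, with 21.3 and 28.0 TPM. With both trends taken out it was at -0.30, below 0 like the others, and Chchd1 was at -0.41, within 2-fold. On the same scale Dap3 was at -1.02, past 2-fold in the zygote. The median log2 ratio of the 5 genes was -0.52, against 0.21 over all genes compared.

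Genes that build the ribosome did not share the displacement. Of 26 assembly factors listed, 20 were compared, with a median log2 ratio of 0.41. Past 2-fold were 5 of the 20 in PB2, against 18.9% of all genes, and 1 in the zygote, against 8.09%. The highest was Noa1, a GTPase, with 2.1 TPM in the zygote against 7.5 TPM in PB2, and the lowest was Mettl15, which methylates the small ribosomal RNA, with 46.3 and 20.2 TPM. The most abundant was Tfb1m, which also methylates that RNA, with 202.7 and 330.5 TPM. Their transcripts are longer than those of the members, with a median of 1858 nucleotides. With both trends taken out their median was 0.30, against -0.20 for the ribosomal proteins.
Mitochondrial translation factors had a median of -0.17 over 14 genes, which was -0.27 with both trends taken out, none past 2-fold in PB2 and 1, the release factor Mtrf1, at least 2-fold higher in the zygote at 26.6 against 11.8 TPM. The highest was Tsfm, an elongation factor, with 30.9 and 52.6 TPM. Of the mitochondrial tRNA synthetases 9 were compared, with a median of 0.10, which was -0.46 with both trends taken out. Past 2-fold were 1 of the 9 in PB2, against 18.9% of all genes, and 1 in the zygote, against 8.09%. Lars2, which charges leucine tRNA, had 174.9 TPM in zygotes and 1352.3 TPM in PB2s, and Rars2, for arginine, had 22.0 and 4.4 TPM. Overlapping genes and pseudogene copies were sought for the members only, so whether reads of these 2 genes are shared with others was not tested.

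For comparison, the respiratory chain, which holds the products of this ribosome, and the cytosolic ribosome were examined. The 77 nuclear-encoded respiratory chain subunits, chosen by name and counted here with those of ATP synthase, had a median log2 ratio of -0.50. Of the 77, 17 (22.1%) passed 2-fold in the zygote, against 8.09% of all genes and 8 of the 75 members. The 77 too are short, with a median of 865 nucleotides. With both trends taken out their median was -0.21, beside -0.20 for the mitochondrial ribosomal proteins. The 78 cytosolic ribosomal proteins compared had a median of -0.12, which was 0.19 with both trends taken out. On that scale only the medians of the 2 ribosomes lay on opposite sides of 0. Single mitochondrial members lay on both sides, among them Mrpl46 (-1.22) and Mrpl44 (1.11). Of the 11 genes of mitochondrial DNA in the table, whose messages this ribosome translates, 10 were lower in PB2, with a median log2 ratio of -0.85. That median was 0.24 with both trends taken out, so its sign depended on this step. Their summed level was 19831.1 TPM in the zygote against 9150.7 TPM in PB2.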

How the data were processed

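RNA-seq values of 1 PB2 library and 1 zygote library were used. The authors based their analysis on reads aligned with HISAT2 2.0.4 and counted per gene with HTSeq 0.6.1p1, and deposited TPM values to 1 decimal. How TPM was made from the counts, and whether strand was used, is not given in the sources used here. The labels name GRCm38 and OryCun2.0, a rabbit assembly, and the identifiers are mouse ones. The table's 11262 genes sum to 89.8% (PB2) and 92.7% (zygote) of a full TPM total. The depth is unknown, so no counting interval is given. Columns were matched to samples by name.

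The log2 ratio used a pseudocount of 1 and genes with at least 1 TPM in either library. With 1 library per group no test was run. Members and lists were chosen with earlier results of these data known. Genes named were the members at least 2-fold apart, the 5 most and 5 least abundant, the 5 nearest 0, those of the places in the large subunit and the Mrps18 paralogs, Mrps12, and the proteins under other names. Mrpl33, Mrps26, Mrpl1, Mrps27, Mrps17, Mrps35 and Mrps11, Tfb1m and the pair with Mrpl46 were picked out with their values in view, as were the classes of length and GC content. Transcript length and GC content came from GENCODE M21 (GRCm38). Trends were fitted by loess (span 0.3) and subtracted, which was tested on simulated data with linear trends. Where both were taken out, GC content came first and length was then fitted to what was left. The other order was not tried. Pseudogene copies were sought with blastn 2.17.0 (at least 95% identity over 50% of the transcript). Python 3.11.15, pandas 2.3.3 and statsmodels 0.14.6 were used.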

Additional observations from a re-analysis of the deposited data

How the results depend on the processing

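No paired analysis was possible because PB2 and zygotes have 1 library each. The median log2 ratio of the members was below 0 under each of the 11 alternatives that can move it, from -0.60 to -0.20. Medians that moved by up to 0.1, single genes by up to 0.5 and counts by up to 1.5 times were taken as unchanged. The lower threshold of 1.5-fold gave 11 members for PB2 and 23 for the zygote, the higher one of 4-fold 0 and 0, by construction. Centred on the median of all genes, 1 member passed 2-fold in PB2 and 17 did in the zygote (13.0% and 12.1% of all genes), with medians of -0.60 for the members, -0.54 for the large and -0.66 for the small subunit, all shifted by construction. With the GC trend removed the counts were 2 and 22 (9.08% and 11.0% of all genes) and the medians -0.60, -0.48 and -0.74. With the length trend removed 3 passed in PB2 and 8 in the zygote (12.1% and 11.7%) and the members' median was -0.28. With both removed 3 passed in PB2 and 10 in the zygote (8.34% and 8.60%), and the medians were -0.20, -0.20 and -0.23. Taking out a trend centres the ratios as well, and beyond that the cause was not tested. A further setting, chosen after seeing the data, left out 11 members. They had an overlap of at least 25% or a pseudogene copy over at least 50% of the transcript. This setting gave 5 and 8 (18.9% and 8.09%) and a median of -0.37. Of 521 values of single members, 20 moved, among them Mrps33 and Mrps18c, which with both trends removed were at -0.69 and -0.14, within 2-fold. None that was past 2-fold changed sign.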
